A study of Mus musculus with 8 samples.

Results

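The genes described are 9 that build the perineuronal matrix of the brain: the link proteins Hapln1, Hapln2 and Hapln4, the lectican proteoglycans Acan, Bcan, Ncan and Vcan, the glycoprotein gene Tnr and the receptor proteoglycan gene Ptprz1. They are 9 of 18193 genes on the array, and 25 of 45037 probe sets were annotated to 1 of them alone. Each gene is represented by its brightest probe set, chosen by the mean level over all arrays, which uses no comparison between groups. The family was put together with earlier results of these arrays known, with Hapln1 at its head, so the values of Hapln1 by age are a description, and their p-values support nothing on their own.

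The study asked how hippocampal gene expression differs between Tg6799 mice and their littermates early and late in the symptomatic phase. Tg6799 mice (MT) carry human amyloid precursor protein with Swedish, Florida and London familial Alzheimer mutations, together with mutated human presenilin 1, both driven by the promoter of the neuronal gene Thy1. Littermates (LM) were the controls. All mice were female, the tissue was whole hippocampus, and 2 arrays were made for each of LM4m, MT4m, LM8m and MT8m, named by genotype and by age of 4 or 8 months. No source used here states if each array is 1 animal, a pool or a repeat, and the p-values therefore cover only the spread among these samples, part or all of which may be technical.

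Values are log2 mRNA levels after robust multi-array averaging (RMA), for which array medians ran from 2.44 to 2.51 and correlations between arrays from 0.985 to 0.993. Levels of different probe sets depend on their probes and were not compared between genes. As a floor, 13 probe sets of 6 Y-linked genes, which female mice lack, had a highest value of 2.51. That value came from 1 probe set of Sry, whose suffix (_x_at) says that some of its probes may also match other transcripts. The next highest probe set, of Usp9y, reached 2.11, and the median of the 13 means was 1.45. The 15 marker genes of hippocampal principal neurons had a mean between 6.45 and 6.93 on every array, which does not show how single genes differed.

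The library labelled MT8m replicate 1 went against its label. Thy1, whose promoter drives the transgenes, was 9.90 there, within the 9.53 to 9.96 of the littermate arrays, while the other MT arrays had 11.73, 11.82 and 11.79. Cst7, a gene of plaque-associated microglia, was 1.75 there, against 6.69, 5.92 and 8.03 in the other MT arrays and at most 2.18 in littermates. The labels were kept. The main differences of the 9 genes are given with and without it, as are some of other genes. Since it was singled out on Thy1 and Cst7, a genotype difference seen without it rests in part on that choice. Without it, MT8m rests on 1 array, replicate 2, so the SE then holds no spread from that group. The gene tables published with the study swap the names of the genotypes for these arrays, so differences by genotype given here run opposite to those tables. On the other 3 MT arrays, Thy1 had the level that the labels imply.

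Perineuronal nets are lattices of extracellular matrix that wrap the cell body and proximal dendrites of some neurons, best known from parvalbumin interneurons and, in the hippocampus, from pyramidal neurons of the CA2 field. Their backbone is hyaluronan, a long sugar chain made at the cell surface. Lecticans bind hyaluronan at one end, link proteins lock that bond, and tenascin-R joins the other ends of the lecticans to each other. The same components in looser form fill the space around synapses and, with other members, the nodes of Ranvier. The nets close the period of strong plasticity in development and are remodelled by proteases.

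To let the regulatory sequence of members with like and unlike patterns be read side by side, the 250 bases before the annotated start are shown for Hapln1 and Tnr, which were both lower at 8 months, and for Vcan, the lectican gene that neighbours Hapln1. They are from RefSeq (GRCm38.p6), 5′ to 3′ on the gene's strand, at chr13:89540386-89540635 (plus), chr1:159523519-159523768 (plus) and chr13:89742513-89742762 (minus). Capitals mark matches on either strand to TATAAA (the TATA box), CCAAT (the CCAAT box), GGGCGG (the GC box), CACGTG (an E-box), TGACTCA (the AP-1 site) or TGACG (the half-site of cyclic AMP response elements).
Hapln1: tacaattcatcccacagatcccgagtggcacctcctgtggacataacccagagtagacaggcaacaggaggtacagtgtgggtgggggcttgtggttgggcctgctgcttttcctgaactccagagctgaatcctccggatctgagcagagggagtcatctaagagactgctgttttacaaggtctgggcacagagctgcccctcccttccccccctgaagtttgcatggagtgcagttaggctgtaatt
Tnr: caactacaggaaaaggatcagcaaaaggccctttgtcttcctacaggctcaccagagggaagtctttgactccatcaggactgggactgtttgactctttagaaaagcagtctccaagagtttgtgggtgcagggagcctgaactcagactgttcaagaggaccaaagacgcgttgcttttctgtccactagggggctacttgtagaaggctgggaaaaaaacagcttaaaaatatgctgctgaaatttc
Vcan: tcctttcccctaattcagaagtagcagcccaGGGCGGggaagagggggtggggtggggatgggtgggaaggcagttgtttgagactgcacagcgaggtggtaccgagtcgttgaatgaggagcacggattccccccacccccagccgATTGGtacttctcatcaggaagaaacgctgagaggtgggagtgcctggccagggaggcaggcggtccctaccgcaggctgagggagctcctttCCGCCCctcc
The windows of Hapln1 and Tnr held none of these 6 motifs. That of Vcan held 1 CCAAT box and 2 matches to the GC box GGGCGG. Among 32851 windows of the same length, 33.8% held CCAAT, 32.7% GGGCGG, 17.8% TGACG, 12.4% TATAAA, 6.02% CACGTG and 4.46% TGACTCA. Such a match is a run of letters and not a known binding site. The table matched 8 of the 9 members, and Hapln4 was not among them.

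Hapln1, which encodes the link protein of cartilage and of perineuronal nets, was lower at 8 months than at 4 months in both genotypes. Its level was 4.28 and 4.16 in LM4m and 4.03 and 4.05 in MT4m. At 8 months it was 3.34 and 3.55 in LM8m and 3.59 and 3.49 in MT8m. All 4 arrays of 8 months thus lay below all 4 arrays of 4 months, with a gap of 0.44 between the nearest arrays, and the genotypes overlapped at 8 months.

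Averaged over genotypes, Hapln1 was 1.55-fold lower at 8 months (log2 difference -0.64 ± 0.09 SE, limma adjusted p = 0.393). Only 2 genes of 18193 had a smaller p in this comparison, yet no probe set of the array passed the adjusted threshold. The difference was -0.77 ± 0.13 in LM and -0.50 ± 0.13 in MT (limma adjusted p = 1.0 and 0.826). The difference between these, the interaction of genotype and age, was 0.27 ± 0.18 with a 95% interval from -0.15 to 0.69. Without the library labelled MT8m replicate 1 the averaged age difference was -0.66 ± 0.10 and the interaction 0.22 ± 0.21. With any single array left out it stayed between -0.69 and -0.58.

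By genotype, Hapln1 differed little (-0.04 ± 0.09 averaged over ages, 95% interval from -0.25 to 0.17), and by -0.07 ± 0.10 without the library labelled MT8m replicate 1. In MT alone the age difference without that library was -0.55 ± 0.16. Among the 4 groups the order was LM4m, MT4m, MT8m and LM8m from high to low, and the last 2 overlapped. In bulk tissue, fewer cells that express a gene and less mRNA per cell cannot be told apart.

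Hapln1 has 4 probe sets, and the other 3 were dim, with values from 1.42 to 2.30, all below the highest value of the Y-linked genes. Some of these values lay above 2.11, the highest of the Y-linked probe sets other than that of Sry with the suffix _x_at. Each of the 4 was lower at 8 months on average, by 0.28 ± 0.11 (limma adjusted p = 0.731), 0.24 ± 0.16 and 0.23 ± 0.15 log2 units in the dim ones. Arrays of the 2 ages overlapped in all 3 dim probe sets. The clear separation by age was thus read from 1 probe set of moderate brightness.

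Hapln2 encodes the link protein found with versican at nodes of Ranvier. Its level was 4.85 and 4.79 in LM4m, 4.59 and 4.51 in MT4m, 4.86 and 4.63 in LM8m, and 4.73 and 5.01 in MT8m. Both MT4m arrays lay below the other 6, and the other groups overlapped. The share of all genes with 1 group apart from the other 6 arrays was not counted, so such a placing only describes the arrays. By age averaged over genotypes Hapln2 differed by 0.12 ± 0.10, and by 0.19 ± 0.105 without the library labelled MT8m replicate 1. By genotype averaged over ages it differed by -0.08 ± 0.10, and by -0.01 ± 0.105 without that library. The age difference in MT was 0.32 ± 0.15 with all arrays (limma adjusted p = 0.87) and 0.46 ± 0.16 without that library. The second probe set, from 2.20 to 2.59, gave 0.18 ± 0.085 by age, 0.01 ± 0.085 by genotype and 0.30 ± 0.12 by age in MT.

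Hapln4, a brain link protein that holds brevican in perineuronal nets, had its lowest values in LM4m, the group in which Hapln1 was highest. It was 5.34 and 5.17 in LM4m, 5.74 and 5.92 in MT4m, 5.89 and 5.87 in LM8m, and 5.73 and 6.22 in MT8m. Both LM4m arrays lay below the other 6, which overlapped. As for Hapln2, the share of all genes with such a placing was not counted. In littermates it was 1.54-fold higher at 8 months (0.62 ± 0.18, limma adjusted p = 1.0), and at 4 months it was 1.49-fold higher in MT than in LM (0.57 ± 0.18, limma adjusted p = 0.944).

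Averaged over the other factor, Hapln4 was higher by 0.38 ± 0.12 at 8 months (limma adjusted p = 0.668) and by 0.33 ± 0.12 in MT (adjusted p = 0.853). Without the library labelled MT8m replicate 1 these were 0.51 ± 0.10 and 0.46 ± 0.10 (adjusted p = 0.331 and 0.259). Without MT8m replicate 2 they were 0.26 and 0.21. The interaction, -0.48 ± 0.25, was -0.23 ± 0.21 without the library labelled MT8m replicate 1. Hapln4 has 1 probe set, so these values had no second reading.

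**Figure D1:**
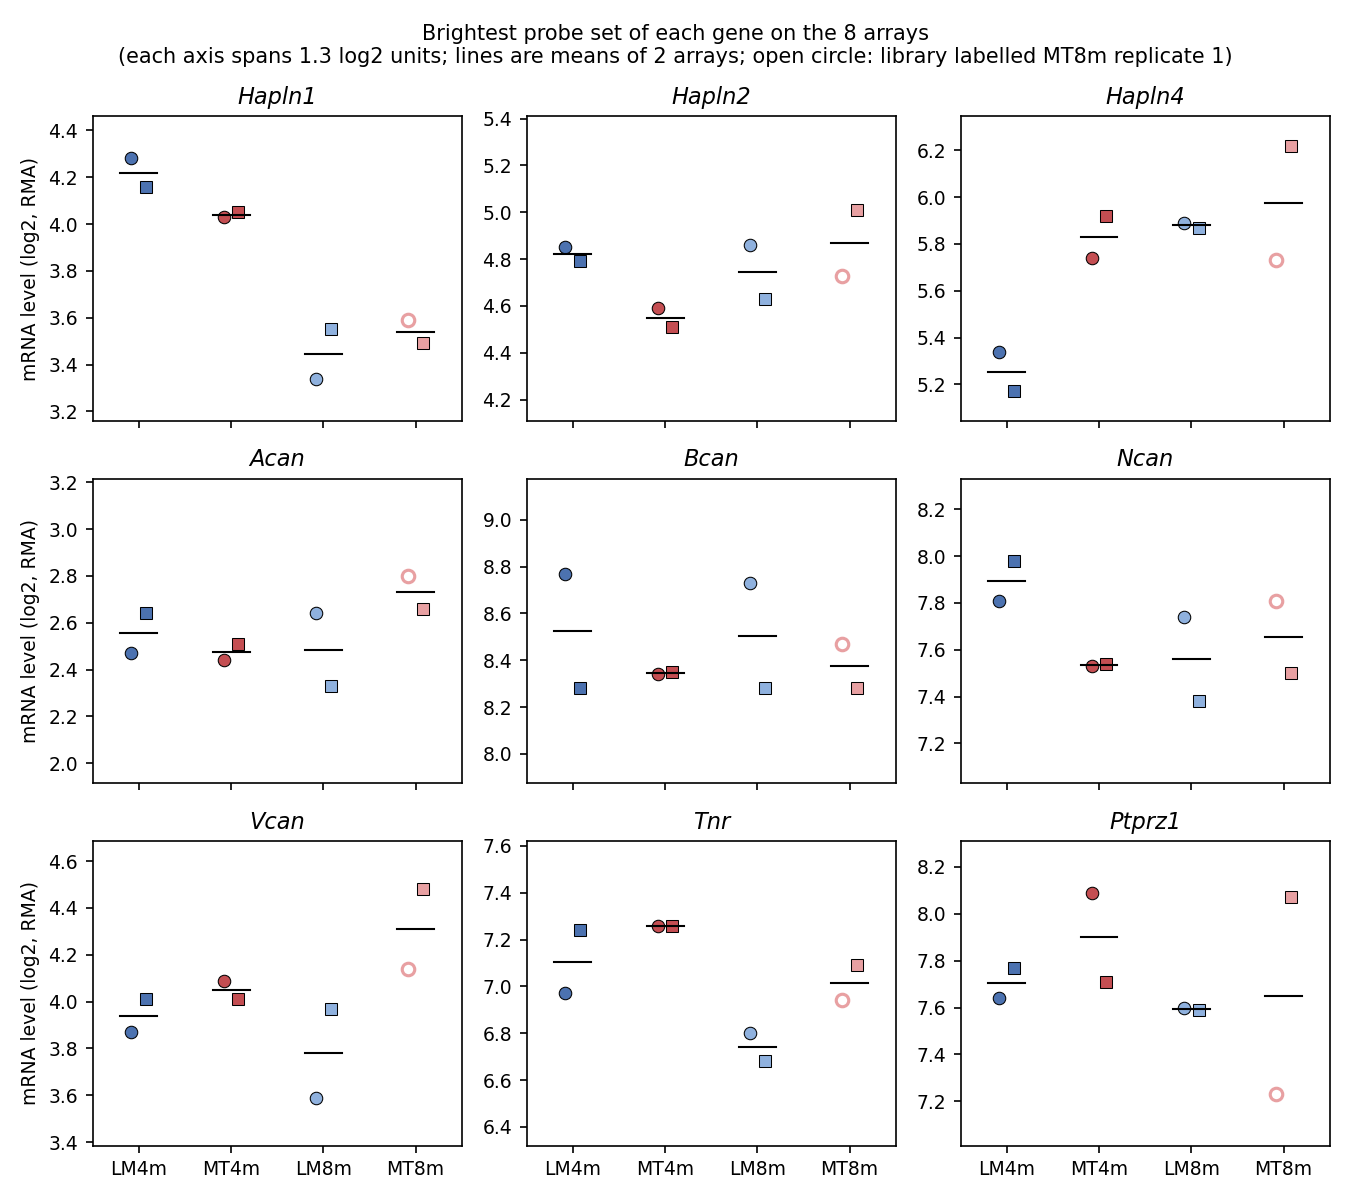
Log2 mRNA level (y axis, 1.3 log2 units in each panel) of the brightest probe set of the 9 genes for the arrays of each group (x axis). Replicate 1 is a circle, replicate 2 a square, with a line at the mean of 2 arrays and an open circle for the library labelled MT8m replicate 1. Hapln1 lies between 4.03 and 4.28 at 4 months and between 3.34 and 3.59 at 8 months, while Hapln4 is lowest in LM4m at 5.17 and 5.34.

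Acan encodes aggrecan, the lectican that most defines perineuronal nets. Its single probe set was dim, at 2.47 and 2.64 in LM4m, 2.44 and 2.51 in MT4m, 2.64 and 2.33 in LM8m, and 2.80 and 2.66 in MT8m. These values lay around the highest value of the Y-linked genes (2.51) and near the median probe set of the array (2.47), so they give no firm reading of aggrecan mRNA. All lay above 2.11, the highest value of the Y-linked probe sets other than that of Sry with the suffix _x_at. By age in MT Acan differed by 0.25 ± 0.15 (limma adjusted p = 0.889), and by 0.19 ± 0.18 without the library labelled MT8m replicate 1. By genotype over both ages it differed by 0.08 ± 0.10, and by 0.05 ± 0.12 without that library. By age over both genotypes Acan differed by 0.09 ± 0.10, and by 0.06 ± 0.12 without that library.

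Bcan, which encodes brevican, the most abundant lectican of the adult brain, had a mean above that of 97.1% of probe sets. Its level was 8.77 and 8.28 in LM4m, 8.34 and 8.35 in MT4m, 8.73 and 8.28 in LM8m, and 8.47 and 8.28 in MT8m. Replicate 1 of both littermate groups stood above all other arrays, and every group overlapped its neighbours. The genotype difference averaged over ages was -0.16 ± 0.14, and the age difference was 0.00 ± 0.14 with a 95% interval from -0.32 to 0.33. Leaving out the library labelled MT8m replicate 1 gave -0.20 ± 0.16 and -0.05 ± 0.16. The suffix of this probe set (_x_at) says that some of its probes may also match other transcripts. The second probe set, from 6.01 to 6.68, gave -0.16 ± 0.17 by genotype and 0.13 ± 0.17 by age.

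Ncan encodes neurocan, a lectican made mostly during development. Its level was 7.81 and 7.98 in LM4m, 7.53 and 7.54 in MT4m, 7.74 and 7.38 in LM8m, and 7.81 and 7.50 in MT8m. At 4 months both MT arrays lay below both LM arrays, 1.28-fold lower (-0.36 ± 0.17, limma adjusted p = 0.944), and at 8 months the genotypes overlapped (0.09 ± 0.17). With the library labelled MT8m replicate 1 left out, Ncan at 8 months differed by -0.06 ± 0.19. A dimmer Ncan probe set (from 3.02 to 3.75) was lower at 8 months by 0.32 ± 0.12 (limma adjusted p = 0.723), where the brightest gave -0.11 ± 0.12 and the third 0.12 ± 0.12.

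Vcan encodes versican, the lectican of nodes of Ranvier and of the loose matrix around vessels and glial precursors. Its level was 3.87 and 4.01 in LM4m and 4.09 and 4.01 in MT4m, then 3.59 and 3.97 in LM8m and 4.14 and 4.48 in MT8m. All 4 MT arrays lay above all 4 LM arrays, but the nearest pair, MT4m replicate 2 and LM4m replicate 2, was equal to 2 decimals. Most of the separation came at 8 months, where MT8m was 1.45-fold higher (0.53 ± 0.17, limma adjusted p = 1.0), against 0.11 ± 0.17 at 4 months.

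Over both ages Vcan was 1.25-fold higher in MT (0.32 ± 0.12, limma adjusted p = 0.853). With the library labelled MT8m replicate 1 left out, Vcan was higher by 0.41 ± 0.12 over both ages and 0.70 ± 0.19 at 8 months. The value at 8 months then sets 1 MT array, with 4.48, against the LM8m arrays. The Vcan difference at 8 months was 0.35 without LM8m replicate 1, the lowest array. The other 7 probe sets of Vcan were dimmer, from 1.16 to 3.10, with 3 above and 4 below 0 by genotype and 0 at an unadjusted limma p under 0.05 (0 adjusted). The difference by genotype was thus seen in the brightest probe set alone.

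**Figure D2:**
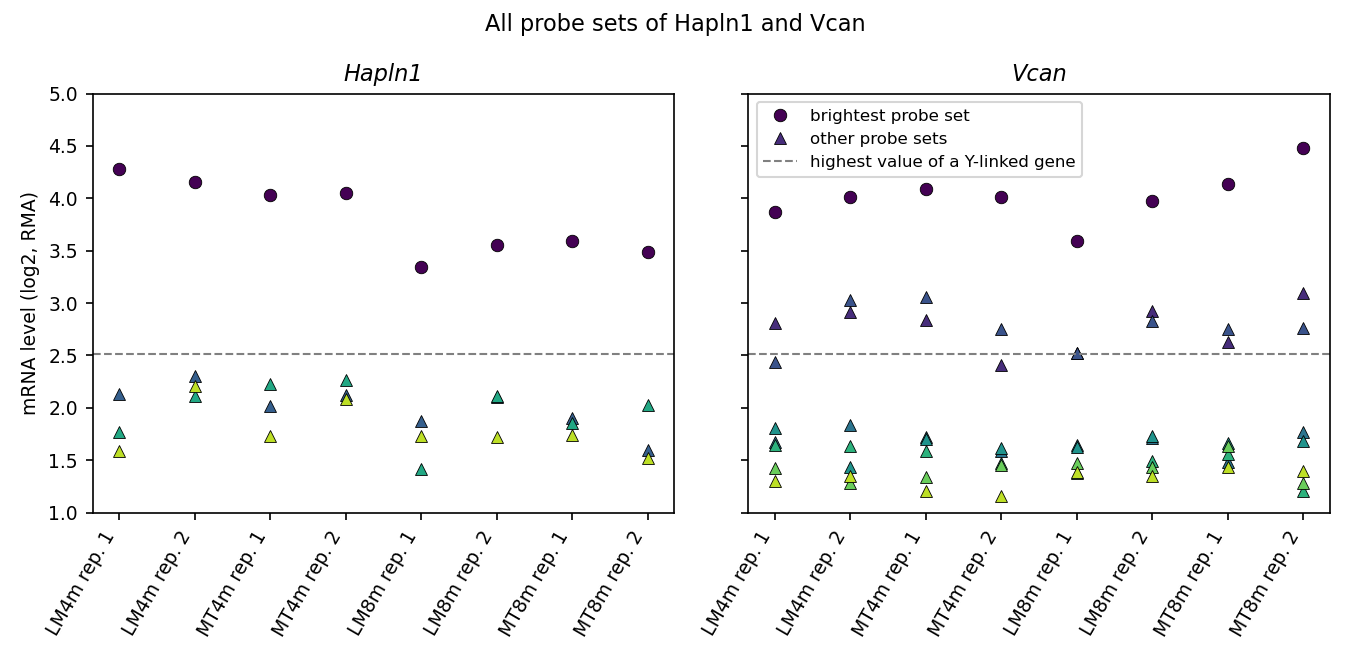
Log2 mRNA level (y axis) on each array (x axis) of all 4 probe sets of Hapln1 and all 8 of Vcan, with a circle for the brightest probe set, triangles of 1 colour for each of the others, and a dashed line at the highest value of a Y-linked gene (2.51). The separation of Hapln1 by age, and of Vcan by genotype, is in the brightest probe set, while the dim ones of Hapln1 lie below the line.

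Tnr encodes tenascin-R, the trimeric glycoprotein that crosslinks lecticans in the net. Its level was 6.97 and 7.24 in LM4m, 7.26 and 7.26 in MT4m, 6.80 and 6.68 in LM8m, and 6.94 and 7.09 in MT8m. Both LM8m arrays lay below the other 6, and within each genotype both arrays of 8 months lay below both of 4 months. The share of all genes with either placing was not counted. Averaged over genotypes Tnr was 1.24-fold lower at 8 months (-0.30 ± 0.10, limma adjusted p = 0.668), with -0.37 ± 0.14 in LM and -0.25 ± 0.14 in MT. Without LM4m replicate 2 the averaged difference was -0.24 and no longer had an unadjusted p under 0.05, and without the library labelled MT8m replicate 1 it was -0.27 ± 0.11, with -0.17 ± 0.17 in MT. By genotype Tnr was 0.21 ± 0.10 higher in MT with all arrays and 0.25 ± 0.11 without that library (adjusted p = 0.853 and 0.63).

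Ptprz1 encodes a receptor tyrosine phosphatase of astrocytes and oligodendrocyte precursors, whose secreted form, phosphacan, is a chondroitin sulfate proteoglycan that binds tenascin-R. Its level was 7.64 and 7.77 in LM4m, 8.09 and 7.71 in MT4m, 7.60 and 7.59 in LM8m, and 7.23 and 8.07 in MT8m. The library labelled MT8m replicate 1 was the lowest of the 8 arrays. With all arrays the genotype difference was 0.12 ± 0.18 (limma adjusted p = 0.945). Without that library it was 0.33 ± 0.12, with 8.07 the only MT8m value left. The age difference turned from -0.18 ± 0.18 to 0.03 ± 0.12 without it. The other 2 probe sets of Ptprz1 gave 0.00 ± 0.12 and -0.04 ± 0.20 by genotype with all arrays.

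Counted together, 0 of the 9 genes passed an adjusted limma p under 0.05 in any comparison. Over all genes the share that passed was 0.0989% by genotype averaged over ages, 0% at 4 months, 0.022% at 8 months, and 0% by age averaged, by age in LM, by age in MT and in the interaction, and 0.0165% in the test across the 4 groups. At an unadjusted limma p under 0.05, 3 of the 9 differed by age averaged over genotypes (Hapln1 and Tnr lower, Hapln4 higher), where 6.47% of all genes did. The same 3 did so by age in LM (3.48% of all genes) and across the 4 groups (5.38%), and Hapln1 alone by age in MT (5.78%). Hapln1 heads the family through earlier results of these arrays, so its place in the age counts was set beforehand. Apart from Hapln1, these counts hold Hapln4 and Tnr, and no member by age in MT. All 9 members were put together with earlier results of these arrays known. The counts by age and by genotype therefore describe the arrays and support nothing on their own.

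By genotype averaged over ages 2 of the 9, Hapln4 and Vcan, were higher in MT at an unadjusted p under 0.05 (6.72% of all genes in either direction). At 4 months this was Hapln4 alone (5.74%) and at 8 months Vcan alone (3.54%), and in the interaction 0 of the 9 (2.58%). All arrays of 8 months lay below all arrays of 4 months for 1 of the 9, Hapln1, against 2.44% of all genes, and above them for 0 of the 9 (1.37%). The place of Hapln1 in this count was also set beforehand. All MT arrays lay above all LM arrays for 1 of the 9, Vcan (1.28%), and below them for 0 (2.42%). Without the library labelled MT8m replicate 1 these 2 genes still separated, as did 3.79% of all genes for lower at 8 months and 3.74% for higher in MT.

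The median of the 9 differences by age averaged over genotypes was 0.00 (all genes 0.00), and by genotype averaged over ages 0.08 (all genes -0.01). In littermates 8 of the 9 had a lower mean at 8 months, with Hapln4 the exception and a median of -0.11 (all genes -0.02). In MT 6 of 9 had a higher mean at 8 months, with a median of 0.12 (all genes 0.00), or 5 of 9 with a median of 0.17 when the library labelled MT8m replicate 1 was left out. These comparisons share arrays, and 0 of the 9 interactions passed, with a median of 0.27 (all genes 0.03) and 7 of 9 above 0.

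**Figure D3:**
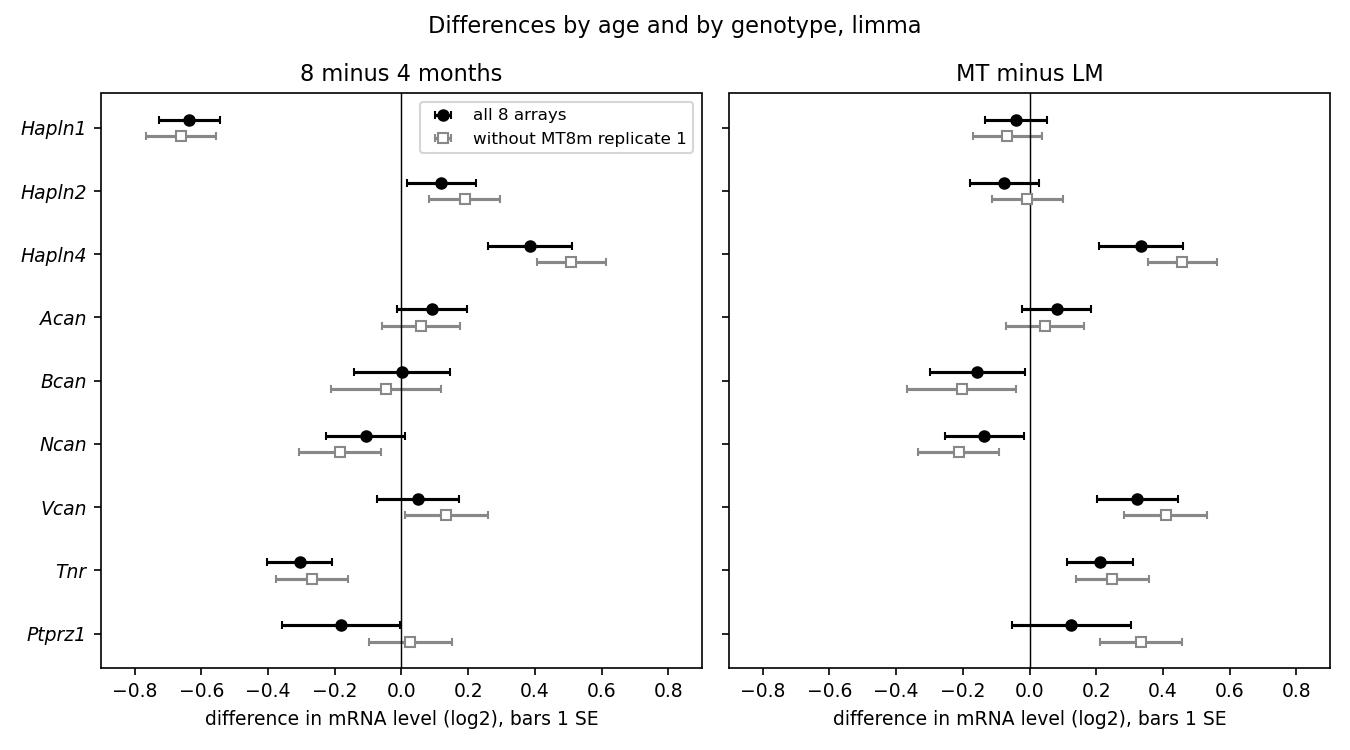
Log2 difference in mRNA level (x axis) by age averaged over genotypes (left) and by genotype averaged over ages (right) for the 9 genes (y axis), with bars of 1 SE from limma, black circles for all 8 arrays and open squares without the library labelled MT8m replicate 1. Hapln1 stands at -0.64 by age and -0.04 by genotype, Hapln4 is above 0 in both, and Ptprz1 is the gene whose genotype value moves most without that library, from 0.12 to 0.33.

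Each link protein gene of this family lies beside a lectican gene in the mouse genome. In the RefSeq annotation, Hapln1 and Vcan are neighbours on chromosome 13, Hapln2 and Bcan on chromosome 3, Hapln4 and Ncan on chromosome 8, and Hapln3 and Acan on chromosome 7, with 0 annotated genes between them in each pair. Of the neighbours, Hapln1 separated by age and Vcan by genotype, and over the 8 arrays their Pearson r was -0.03. Hapln3, which is outside the 9, was dim, from 2.27 to 2.64.

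Of 12 measured genes for hyaluronan synthesis, turnover and receptors, 0 passed the adjusted limma test by genotype or by age. Cemip, a hyaluronan-binding protein that takes part in its breakdown, was lower in MT (-0.33 ± 0.09, limma adjusted p = 0.757) and was the 1 gene of the list at an unadjusted p under 0.05 by genotype averaged over ages with all arrays. Has2, a hyaluronan synthase, was at the floor, with a mean of 1.56. Cd44, the hyaluronan receptor of glia and immune cells, was 4.94 in MT8m replicate 2 and at most 3.31 on the other arrays. When the library labelled MT8m replicate 1 was left out, Cd44 differed by 0.95 ± 0.25 by genotype and 1.22 ± 0.25 by age. The value of 4.94 was then the only one of MT8m.

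Of 27 measured genes for chondroitin sulfate synthesis and sulfation, which build the sugar chains that lecticans carry, 0 were at an unadjusted limma p under 0.05 by genotype averaged over ages or by age averaged over genotypes with all arrays (0 adjusted). The list medians were 0.00 by genotype and -0.04 by age. The largest values were 0.29 ± 0.16 by genotype for B3galt6, which helps make the linker between sugar and protein, and -0.35 ± 0.18 by age for Dsel, an epimerase that makes dermatan sulfate.

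Among 20 other matrix proteins of the brain, 0 passed the adjusted limma test, 3 were lower in MT at an unadjusted p under 0.05 and 1 was higher at 8 months. The 3 were the fibulin gene Fbln1 (-0.49 ± 0.13), the small proteoglycan gene Bgn (-0.51 ± 0.19) and Reln, the matrix signal of interneurons and Cajal-Retzius cells (-0.52 ± 0.17). The 1 was Cspg5, the membrane proteoglycan neuroglycan C (0.37 ± 0.12 by age, adjusted p = 0.666). The mean log2 level of 15 marker genes of meninges and fibroblasts, cells that also make Fbln1 and Bgn, was also lower in MT on average, but the arrays overlapped. LM4m replicate 1 (5.10) and LM8m replicate 2 (5.05) were highest, and the other LM arrays had 3.72 and 3.92. All 15 had a lower mean in MT (5 at an unadjusted p under 0.05, 0 adjusted), and their mean level was 3.72 to 5.10 on LM arrays and 3.46 to 3.81 on MT arrays. When the library labelled MT8m replicate 1 was left out, 2 of the 15 had an unadjusted p under 0.05 and 1 passed, the growth factor gene Igf2, which fell by 2.11 ± 0.29 in MT (limma adjusted p = 0.0453). The part of these cells in the differences was not tested.

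Of 20 matrix proteases and inhibitors, 0 passed, with Timp3, an inhibitor of metalloproteases, lower in MT (-0.50 ± 0.14, limma adjusted p = 0.763). Ctss, a lysosomal protease of microglia that can cleave proteoglycans, was 7.82 and 7.64 in LM4m, 9.44 and 9.36 in MT4m, 7.72 and 8.23 in LM8m, and 8.16 and 10.48 in MT8m. Its 2 MT4m arrays and MT8m replicate 2 stood above all others, and its difference was 1.51 ± 0.42 (adjusted p = 0.757). The 16 markers of plaque-associated microglia had means of 6.76, 6.23 and 7.52 on those 3 arrays and of 4.59 to 4.99 on the other 5, and 14 of 16 were higher in MT at an unadjusted p under 0.05 (0 adjusted). Without the library labelled MT8m replicate 1, Ctss was 2.09 ± 0.14 higher in MT. That library was singled out in part on Cst7, which is itself in the list of 16 markers. Leaving it out thus favours microglial genes by the way it was chosen.

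Of 24 receptors and ligands of matrix proteoglycans, 1 passed, and it was lower in MT: Otx2, a homeodomain protein that binds to perineuronal nets and is made by choroid plexus. Its level was 3.70 and 4.14 in LM4m, 2.45 and 2.28 in MT4m, 4.18 and 5.08 in LM8m, and 2.50 and 2.74 in MT8m. Every MT array lay below every LM array (-1.78 ± 0.20, limma adjusted p = 0.0248). Otx2 is itself in the list of choroid plexus markers, of which 14 of 14 measured were lower in MT at an unadjusted p under 0.05 and 11 passed. The mean level of that list was 5.25 to 6.33 on LM arrays and 3.43 to 3.62 on MT arrays. Without the library labelled MT8m replicate 1, Otx2 differed by -1.72 ± 0.23 (limma adjusted p = 0.0394) and 11 of the 14 passed. The part of choroid plexus tissue in the Otx2 value was not tested.

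The other ligands and receptors at an unadjusted limma p under 0.05 by genotype were the contactin gene Cntn4 (-0.45 ± 0.10), Sema3a, a guidance protein held in nets (-0.43 ± 0.14), Lingo1, Mdk and the neuronal pentraxin gene Nptx1 (0.41 ± 0.16), of which the last was higher and the others lower in MT. None of these passed (adjusted p from 0.548 to 0.853).

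**Figure D4:**
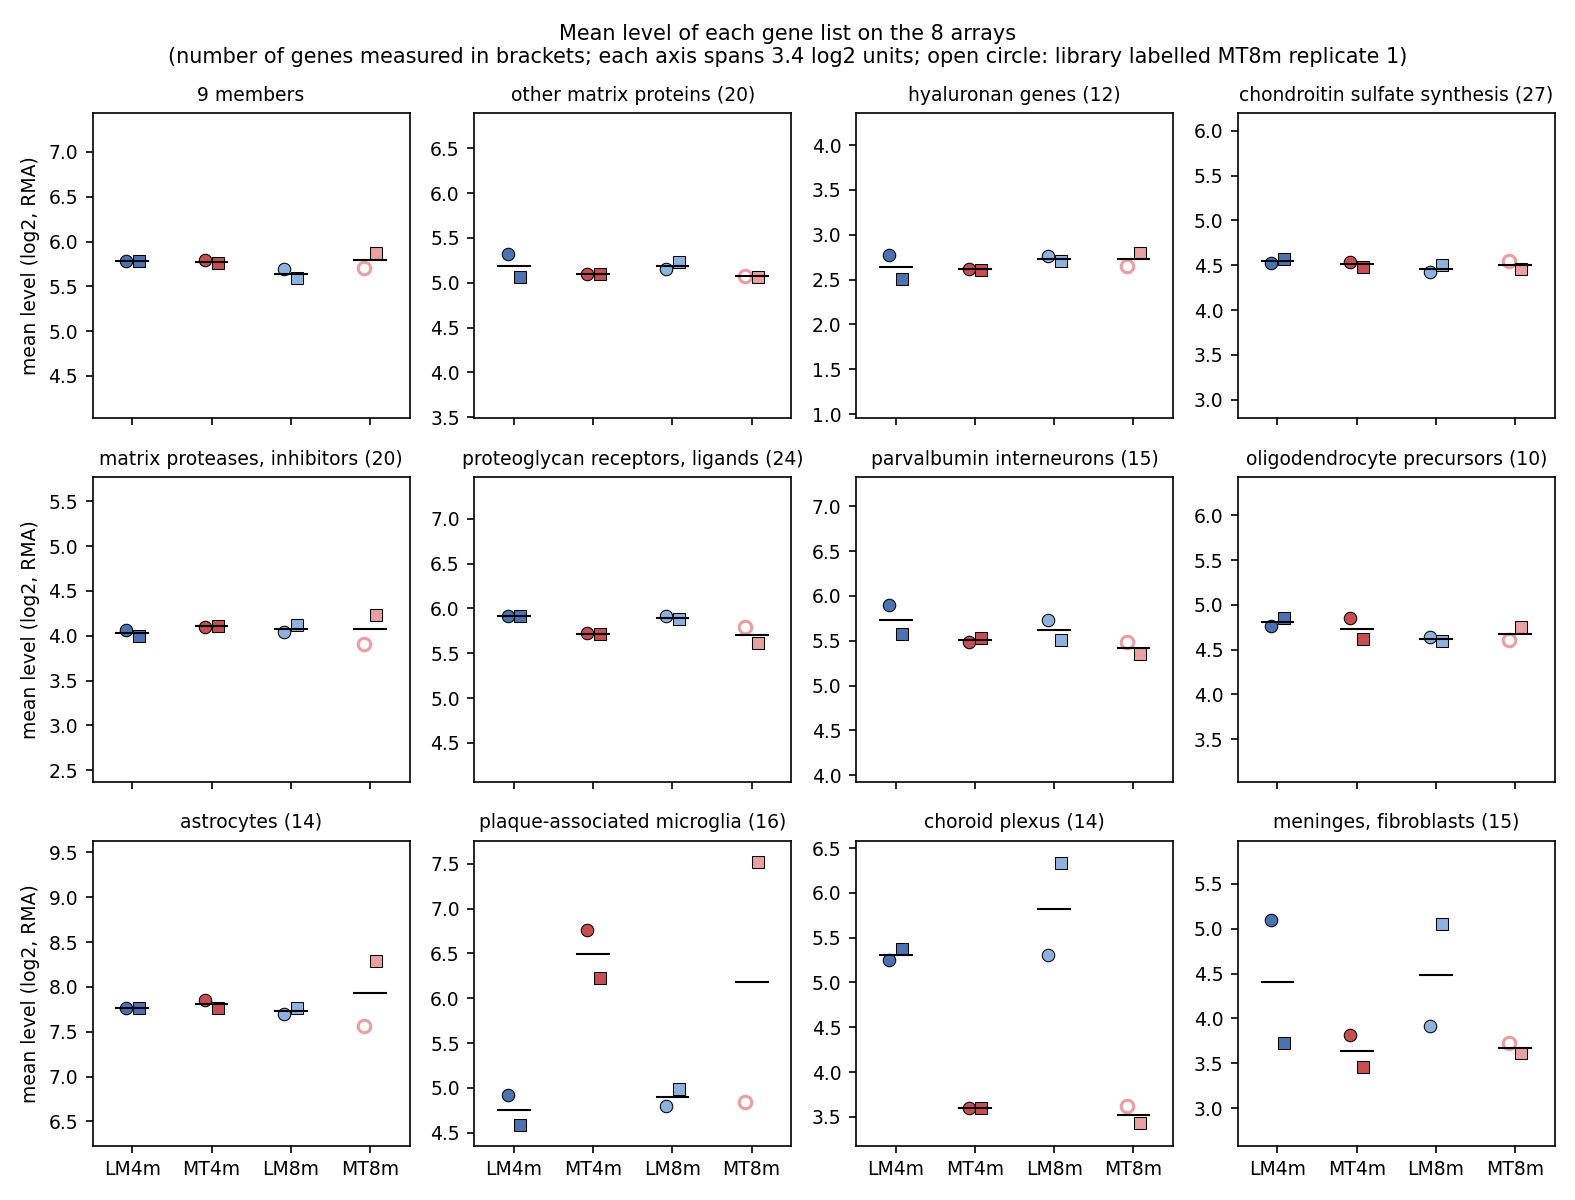
Mean log2 mRNA level (y axis, 3.4 log2 units in each panel) of the 9 genes and of 11 gene lists for the arrays of each group (x axis). Replicate 1 is a circle, replicate 2 a square, with a line at the mean of 2 arrays and an open circle for the library labelled MT8m replicate 1. Chondroitin sulfate synthesis lies between 4.42 and 4.57, whereas plaque-associated microglia reach 7.52 in MT8m replicate 2 and choroid plexus lies between 3.43 and 3.62 on the MT arrays.

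The cells that carry or make the net were described with their own lists. The list for parvalbumin interneurons holds 15 genes, some of which are shared with other interneurons. Of the 15, 0 passed by genotype and 2 were lower in MT at an unadjusted limma p under 0.05. Pvalb, the calcium buffer that names parvalbumin interneurons, was 6.67 and 6.36 in LM4m, 6.08 and 5.57 in MT4m, 6.78 and 6.43 in LM8m, and 6.36 and 5.45 in MT8m. The lowest LM array and the highest MT array were equal to 2 decimals, and the difference was -0.70 ± 0.21 (limma adjusted p = 0.775). Without the library labelled MT8m replicate 1 it was -0.93 ± 0.17 (limma adjusted p = 0.123), and 4 of the 15 were lower at an unadjusted p under 0.05. The mean level of the list ranged from 5.51 to 5.90 on LM arrays and from 5.35 to 5.53 on MT arrays, and its lowest gene, Erbb4, was at the floor (1.38). Of 10 markers of other interneurons, 8 had a lower mean in MT, with a median of -0.23 (all genes -0.01), and 3 had an unadjusted limma p under 0.05 (0 adjusted), or 4 without that library. The 3 were Calb2, the calcium buffer calretinin (-0.37 ± 0.09), Npy, the neuropeptide Y gene (-0.55 ± 0.24), and Reln. The mean level of that list was 5.95 to 6.08 on LM arrays and 5.51 to 6.05 on MT arrays. The part of either class of interneurons in the values of the 9 genes was not tested.

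By age, 9 of the 15 genes in the parvalbumin list had a lower and 6 a higher mean at 8 months, with a median of -0.078 (all genes -0.004). The 1 at an unadjusted limma p under 0.05, against 6.47% of all genes, was the interneuron transcription factor Lhx6. It was lower at 8 months (-0.57 ± 0.17, limma adjusted p = 0.651). Of the 10 markers of other interneurons, 7 were lower and 3 higher, with a median of -0.157. At an unadjusted limma p under 0.05, 2 of the 10 were lower and 1 was higher (0 adjusted). Among 8 markers of CA2 pyramidal neurons, the channel subunit gene Cacng5 was higher at 8 months, at 3.81 to 4.25 on the arrays of 4 months and 4.41 to 4.99 on those of 8 months (0.65 ± 0.10, limma adjusted p = 0.393). The groups of Cacng5 by age did not overlap, as for Hapln1 but in the other direction, in which 1.37% of all genes separated. Of the 8 markers, 5 had a higher and 3 a lower mean at 8 months, with a median of 0.075 (all genes -0.004). Cacng5 was the 1 at an unadjusted limma p under 0.05 (0 adjusted). The 1 gene of that list that passed by genotype, Sostdc1 (-2.33 ± 0.23, adjusted p = 0.0198), is also strongly made by choroid plexus. Of the 15 markers of hippocampal principal neurons, 8 had a higher and 7 a lower mean in MT. At an unadjusted limma p under 0.05, 3 were higher in MT and 0 lower (0 adjusted). Without the library labelled MT8m replicate 1, Wfs1 of this list differed by -0.84 ± 0.12 by genotype.

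Among 10 markers of oligodendrocyte precursors, cells that make Vcan and Ptprz1, 0 passed and 2 were lower at 8 months at an unadjusted limma p under 0.05. Gpr17, the receptor of precursors that are about to differentiate, was 5.82 and 6.19 in LM4m, 6.40 and 5.72 in MT4m, 5.08 and 4.91 in LM8m, and 5.54 and 5.36 in MT8m. All arrays of 8 months lay below all of 4 months, as for Hapln1 and for 2.44% of all genes. Gpr17 differed by -0.81 ± 0.16 by age (limma adjusted p = 0.459). The other of the 2 genes was Olig2 (-0.25 ± 0.10), while Sox10 was 0.12 ± 0.11. When the library labelled MT8m replicate 1 was left out, 1 of the 10 was at an unadjusted p under 0.05. The mean of the list was 4.62 to 4.85 at 4 months and 4.60 to 4.75 at 8 months, so the ages overlapped. The part of these cells in the values of Hapln1 and Tnr was not tested.

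Other tissue in the dissection was read in the same way. Of 10 markers of neocortex, 0 passed and 4 were lower at 8 months at an unadjusted limma p under 0.05, with a mean of 5.01 to 5.98 on arrays of 4 months and 4.91 to 5.49 on those of 8 months. Of 10 markers of thalamus, 8 of striatum and 9 of endothelium, 0, 1 and 1 had an unadjusted p under 0.05 by age and 0 passed by age or genotype. By genotype, all 10 markers of neocortex had a lower mean in MT, with a median of -0.34 (all genes -0.01), and 2 were at an unadjusted limma p under 0.05. In the same comparison 1 marker of thalamus and 3 of striatum were lower in MT and 2 of endothelium were higher at that threshold. The 12 markers of myelinating oligodendrocytes, the cells of the nodal link protein Hapln2, had a mean of 7.21 to 7.43 on every array. At an unadjusted limma p under 0.05, 1 of the 12 was higher and 2 were lower at 8 months (0 adjusted), where 6.47% of all genes differed. By genotype 1 was lower in MT at that threshold (0 adjusted). The part of these tissues in the age and genotype values of the 9 genes was not tested.

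Astrocyte markers (14 genes) had a mean of 8.29 in MT8m replicate 2 and of 7.57 to 7.86 on the other arrays, the lowest being the library labelled MT8m replicate 1. Without that library, 2 of the 14 passed by genotype, Gfap (1.94 ± 0.11) and the water channel gene Aqp4 (0.96 ± 0.10), where 0 did with all arrays. MT8m replicate 2 and that library held the 4.48 and 4.14 of Vcan and the 8.07 and 7.23 of Ptprz1. The part of astrocytes in these values was not tested.

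Signs of RNA quality were read from the 3′ minus 5′ log2 difference of the control probe sets for Gapdh. It was 2.19 and 1.03 in LM4m, 1.01 and 0.99 in MT4m, 1.42 and 0.66 in LM8m, and 0.93 and 1.17 in MT8m. LM4m replicate 1 and LM8m replicate 1 were highest, the same arrays on which Bcan stood at 8.77 and 8.73. The ages overlapped in this measure. Without LM4m replicate 1 the age difference of Hapln1 was -0.61.

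The genes whose values over the 8 arrays were most like those of Hapln1 were sought among 3278 genes with an SD of at least 0.25. By Pearson r these were Sdf2l1 (0.966), Smc2 (0.958), Spry3 (0.957), Creld2 (0.951) and Chordc1 (0.94). Sdf2l1 and Creld2 encode proteins of the endoplasmic reticulum, Smc2 a condensin subunit, Spry3 a Sprouty family member and Chordc1 a cochaperone. Sdf2l1, the first, was 5.23 and 5.19 in LM4m, 4.93 and 4.82 in MT4m, 4.07 and 4.39 in LM8m, and 4.47 and 4.53 in MT8m. Its arrays separated by age as those of Hapln1 did (-0.67 ± 0.10, limma adjusted p = 0.393).

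The genes least like Hapln1 were the nuclear long noncoding RNA Malat1 (-0.919), Ano1 (-0.909), Zeb2 (-0.877), Rsrp1 (-0.876) and Mxra7 (-0.869). Malat1 was 9.52 to 9.98 at 4 months and 10.59 to 11.29 at 8 months. With 8 arrays in 2 ages, a gene that separates by age tends to a high r, and these values describe the arrays. Of the other members, Tnr had an r of 0.64, Ncan 0.35, Ptprz1 0.22, Bcan 0.01, Vcan -0.03, Hapln2 and Acan -0.31 each, and Hapln4 -0.71.

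**Figure D5:**
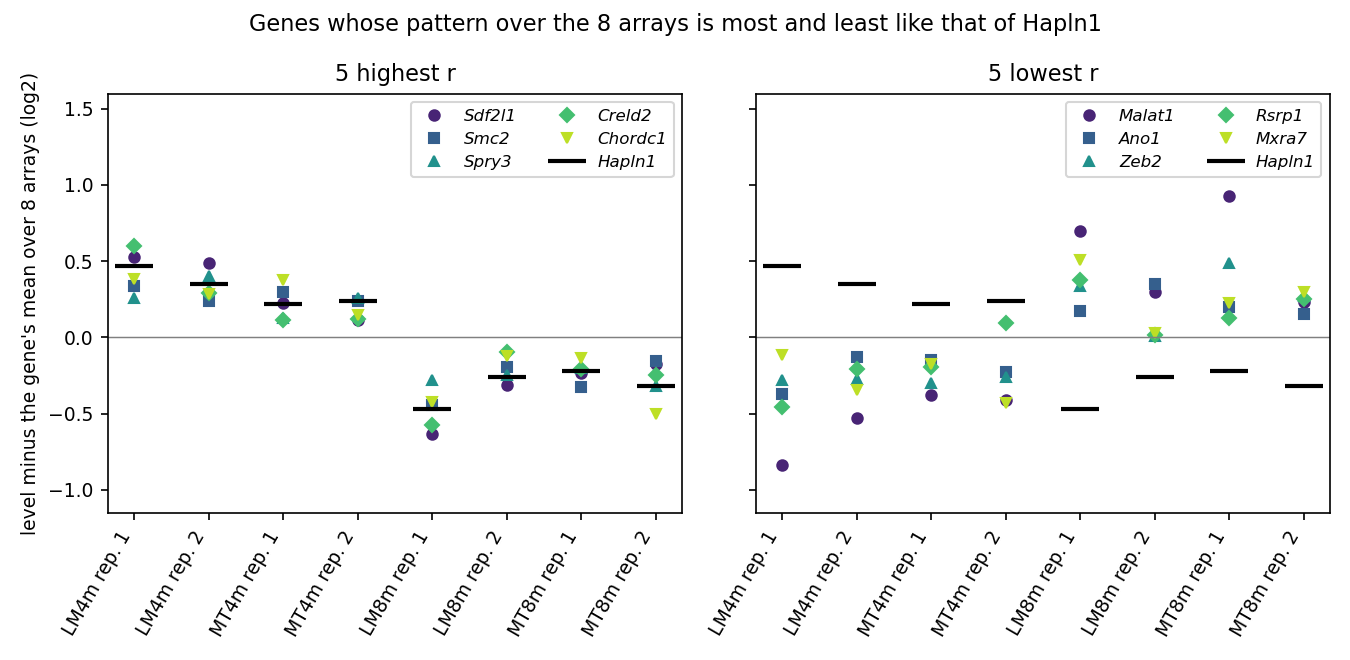
Log2 level minus the mean of the gene over the 8 arrays (y axis) on each array (x axis) for Hapln1 (black bars) and the 5 genes with the highest (left) and the 5 with the lowest (right) Pearson r with it. On the left all genes are above 0 at 4 months and below 0 at 8 months, and Malat1 on the right runs the other way.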

How the data were processed

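RNA was isolated from hippocampus with TRI-Reagent (RIN above 8), labelled and hybridised to Affymetrix mouse genome arrays. RMA, run by the authors in the package affy (its version is not given in the sources used here), turned the scans into the deposited log2 values of 45101 probe sets, including 64 controls. The values ran from 0.979 to 12.9 with a median probe set mean of 2.47. The number of arrays limits the precision.

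Probe sets were named from the platform annotation, in which 34945 had 1 symbol, 932 several and 9160 none, and the last 2 kinds were left unnamed. The brightest probe set stood for each gene. The means of the 4 groups were fitted with limma 3.58.1 (lmFit, eBayes) in R 4.3.3 to all 8 arrays and 45037 probe sets, with 4 residual degrees of freedom, and contrasts were taken by genotype, by age and for their interaction. The tests are two-sided, with Benjamini-Hochberg adjustment over all tested probe sets and a threshold of 0.05. The fit was tested on simulated data. Shares of all genes count each gene by its brightest probe set.

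The members and lists were chosen with earlier results of these data known. Named were all 9 members, up to 4 genes of a list with the largest genotype or age difference, genes that passed, checks of the labels, and the 5 genes most and least like Hapln1 by Pearson r. Of the genes that pass an unadjusted threshold in a list, Lingo1, Mdk and Olig2 were named after their values were seen, as were Erbb4, Hapln3 and Wfs1. No named probe set was found for some list genes, which were not analysed here.

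Alternatives were leaving out dim probe sets, renormalizing by cyclic loess, a trended robust prior, 1 probe set per gene, fits of 1 age alone, an additive model, the title number as a replicate block and each array left out. The numbers did not pair the arrays by the check used: deviations of arrays with the same number correlated at 0.241 in LM and -0.175 in MT. A block with the MT numbers crossed was added after seeing the data. A change of sign between settings counts as a reversal only for a value that passed the test.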

Additional observations from a re-analysis of the deposited data

How the results depend on the processing

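Under every alternative run, 0 of the 9 genes passed the adjusted test in any comparison. The age difference of Hapln1 stayed between -0.69 and -0.58 with 1 array left out and at -0.64 in the other fits (limma adjusted p from 0.183 to 1.0 over all alternatives). With an array left out, 34 of 504 member differences had another sign than with all arrays, none of them larger than 0.25 with all arrays, and in the other fits 1 of 360 did. Other probe sets of the same gene gave another sign in 42 of 112.

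Over all probe sets the number that passed by genotype averaged over ages was 27, against 5 to 142 with 1 array left out, 142 being without the library labelled MT8m replicate 1. Among the 9, Ptprz1 gained an unadjusted limma p under 0.05 there and Hapln4 and Vcan kept theirs. Without MT8m replicate 2, LM8m replicate 1 or MT4m replicate 2, 0 of the 9 had one. Dropping the library labelled MT8m replicate 1 favours genes that vary with Thy1 and Cst7, by which it was singled out.

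With the title number as a replicate block, the age difference of Hapln1 was -0.64 ± 0.10 (limma adjusted p = 0.399), and 3, 3 and 1 of the 9 had an unadjusted p under 0.05 by age averaged, in LM and in MT, as without it. With the MT numbers crossed, 3, 3 and 2 probe sets of the whole array passed by age averaged, in LM and in MT, 1 in the interaction, and 0 of the 9. Genotype differences could not be fitted with the block, since the genotypes carry different numbers. Many probe sets lie near the level of the Y-linked genes, where a difference in mRNA may not be readable.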
